A study of Homo sapiens with 9 samples.

Results

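The data are the response of untransfected LNCaP cells to dihydrotestosterone (DHT), read from 2 of the 9 arrays of a study of topoisomerase II beta in androgen signalling. LNCaP is a human prostate cancer cell line that responds to androgen. The pair is the inhibitor-series DHT array set against the inhibitor-series control array, so there was 1 array a side. DHT cells spent 48 h in medium with 5% charcoal-stripped serum, which lacks androgen, and then 16 h with 100 nM DHT. Control cells were labelled as androgen-deprived, also for 48 h in 5% serum, with no DHT named. The labels name a vehicle for the shRNA series only. The other arrays of the inhibitor series came from deprived cells that had a topoisomerase II inhibitor (etoposide or merbarone, each at 100 µM) 2 h ahead of DHT, and from steady-state cells grown in 10% serum. The 4 shRNA-series arrays used here came from cells transfected with an sh-TOP2B or an sh-control vector, both making green fluorescent protein. These cells were deprived for 48 h in 5% serum, given 100 nM DHT or vehicle for 16 h, and sorted for fluorescence. Each group had 1 array, and the labels name no separate cultures. The p-values below thus reflect only how these arrays vary, which may be technical or may go with the vector or series.

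Androgens such as DHT bind the androgen receptor, a transcription factor that moves to the nucleus and binds DNA at androgen response elements. In prostate luminal cells it drives genes of secreted proteases, of lipid and protein synthesis and of cell growth, and it lowers others, among them genes that inactivate androgen. Removing steroids from serum with charcoal leaves the receptor without ligand, so that added DHT can be read against a low baseline.

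Values are log2 levels on Affymetrix U133 Plus 2.0 arrays, and each difference is a log2 difference, DHT minus control, in which 1 stands for 2-fold. Levels under the array's own median (5.65 with DHT, 5.66 in control cells) are called dim. Where 1 of the levels is dim, the median takes its place and the size is written as "at least". The pair itself allows no test. Tests come from limma across the 3 DHT pairs of the series (inhibitor, sh-control and sh-TOP2B), from the shRNA pairs alone, and on the difference between the inhibitor pair and the mean of the shRNA pairs. For the last 2 tests the residual spread is the gap between the sh-control and sh-TOP2B DHT differences. These 2 pairs differ in TOP2B knockdown, so they are not replicates of 1 condition. The part of the knockdown in that spread was not tested. The fit over the 3 pairs contains the inhibitor pair, so for genes chosen by their size in that pair it is no independent support; the shRNA pairs share no array with it. Adjusted p-values are those of limma after Benjamini-Hochberg adjustment over 11865 genes, and errors are standard errors (SE).

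The 2 arrays were close to each other. Their levels correlated at r = 0.9954 over 54675 probe sets, and 5.41% of probe sets had exactly equal values. The differences of 45 control probe sets for non-human transcripts lay between -0.32 and 0.40. The beta-actin 3' minus 5' difference, a measure of RNA quality, was 0.46 with DHT and 0.47 in control cells, against 2.38 to 3.09 on the shRNA-series arrays. For GAPDH the gap between the series was smaller: 0.20 with DHT and 0.17 in control cells, against 0.52 to 0.64. Luminal markers were present: 9 of 9 named markers, among them the keratin genes KRT8 and KRT18, the adhesion gene EPCAM and the homeobox gene HOXB13, lay above the median with DHT (8.82 to 13.25), and 8 of 9 in control cells, where KLK2 was dim. Of other cell types, the basal keratin genes KRT14 and KRT15, the fibroblast genes COL1A2, COL3A1, DCN and LUM and the blood genes PTPRC and CD14 were dim on both arrays. Some listed markers were not dim, such as HLA-DRA (11.23 with DHT and 11.12 in control cells), COL1A1 (8.05 on both) and VIM (8.35 and 8.46). The largest difference among markers of other cells that were not dim was that of ANXA1, a marker of lines without the receptor (6.83 with DHT and 7.41 in control cells), then VWF (7.79 and 7.35). The part of these cells in the results was not tested. In bulk RNA, a change in the number of expressing cells and a change in RNA per cell cannot be told apart.

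DHT gave a response in this pair that was small in the number of genes and large in a few of them. Of 11865 genes, 29 were higher by at least 1 with DHT, which is 0.244%, and 5 were lower by at least 1, which is 0.0421%. Only 6 of the 29 passed 2. At a difference of 0.5 there were 204 genes higher (1.72%) and 125 lower (1.05%), and 88.5% of genes differed by less than 0.3. The median difference was 0.0009 and the SD over genes 0.219. The sh-control pair, by comparison, had an SD of 0.461, with 250 genes higher and 213 lower by at least 1, and the sh-TOP2B pair an SD of 0.429, with 206 and 173. Of the 29 higher genes, 18 had both levels above the median, 10 were dim in control cells, and HPGD, which encodes an enzyme that inactivates prostaglandins, was dim on both arrays. With dim levels raised to the median, 21 genes had a difference of 1 or more and 4 had one of -1 or less.

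The spread of the differences depended on level. The SD was 0.271 among the genes with the lowest levels, 0.219 among those with middle levels and 0.146 among those with the highest, in groups of equal number, and all 5 genes lower by at least 1 were in the lowest group. FKBP5 (1.01), ERVMER34-1 (1.00) and PPFIBP2 (1.00) lay just inside the size of 1, while PBK (0.996), GPR158 (0.985) and IPMK (0.978) lay just outside it. On the other side LINC02591 (-1.02) and COL5A2 (-1.01) were just inside, and NPTN-IT1 (-0.983) and BHLHE40 (-0.964) just outside.

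**Figure D1:**
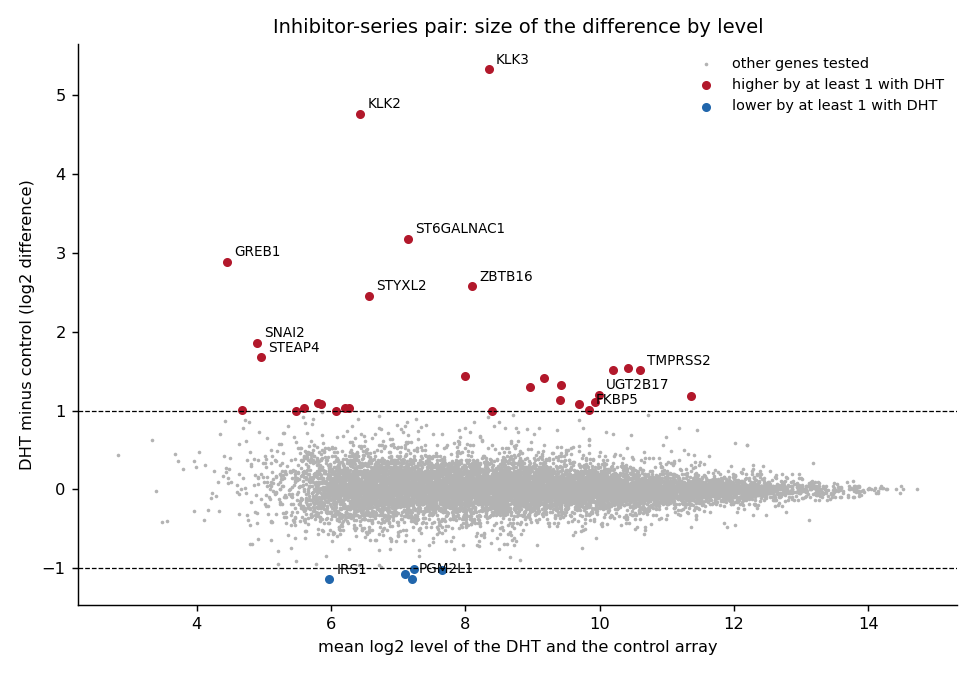
Each point is a gene of the inhibitor-series pair, with the mean log2 level of the DHT and control arrays on the x axis and the log2 difference, DHT minus control, on the y axis; red points (29) are higher and blue points (5) lower by at least 1, the dashed lines. KLK3 (5.33) and KLK2 (4.77) stand above all other genes, and the cloud of points narrows at high levels.

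The genes of prostate kallikreins, secreted serine proteases, had the largest differences. KLK3, which encodes prostate-specific antigen, stood at 11.02 with DHT and 5.68 in control cells, a difference of 5.33 or 40.3-fold, and serum-grown cells had 13.82. The control level of KLK3 lay just above that array's median of 5.66, so this size rests on a level near the dim limit. KLK2, which encodes a protease that can activate prostate-specific antigen, stood at 8.82 with DHT and 4.04 in control cells, where it was dim, and was higher by at least 3.16, or 8.93-fold, with 11.68 in serum-grown cells. Both genes thus rose far above the control level and stayed below the level of serum-grown cells. In the shRNA pairs KLK3 rose by 4.98 ± 0.09 (limma adjusted p = 1.9e-10) and KLK2 by 6.64 ± 0.14 (adjusted p = 4.62e-10, from the deposited differences). KLK2 was dim with vehicle there too, and higher by at least 6.50 and 6.49. The 3 KLK3 probe sets gave 5.76, 5.33 and 0.50. The 4 KLK2 probe sets gave 4.77, 2.46, 0.30 and 0.06. KLK4, a related prostate protease gene, differed by 0.66.

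The proximal KLK3 promoter is known to hold an androgen response element, so the 250 bases before the start of KLK3, KLK2 and STK39 (a kinase gene, difference 1.32) are shown, from RefSeq, build GRCh38.p14. They lie at chr19:50854665-50854914 (plus strand), chr19:50873189-50873438 (plus strand) and chr2:168247596-168247845 (minus strand). Capitals mark the match to the receptor's motif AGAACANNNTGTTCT, searched with up to 3 mismatches in its 12 fixed letters; the motif reads the same on both strands.
KLK3: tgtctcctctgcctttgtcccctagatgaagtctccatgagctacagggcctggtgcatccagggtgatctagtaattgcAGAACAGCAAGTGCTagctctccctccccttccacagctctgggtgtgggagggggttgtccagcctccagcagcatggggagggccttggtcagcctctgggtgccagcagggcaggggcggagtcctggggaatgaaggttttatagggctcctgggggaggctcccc
KLK2: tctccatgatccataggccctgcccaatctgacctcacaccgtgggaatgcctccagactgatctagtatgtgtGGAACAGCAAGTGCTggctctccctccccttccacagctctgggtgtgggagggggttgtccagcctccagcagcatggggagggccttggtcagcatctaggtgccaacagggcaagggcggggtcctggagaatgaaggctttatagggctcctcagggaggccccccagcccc
STK39: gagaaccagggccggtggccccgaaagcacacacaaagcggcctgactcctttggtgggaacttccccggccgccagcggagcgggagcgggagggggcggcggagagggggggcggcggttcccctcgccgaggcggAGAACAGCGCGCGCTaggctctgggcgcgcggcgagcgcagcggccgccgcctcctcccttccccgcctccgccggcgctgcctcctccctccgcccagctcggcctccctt
The match lay 170 to 156 bases before the start in KLK3 (2 mismatches), 176 to 162 in KLK2 (3 mismatches) and 112 to 98 in STK39 (3 mismatches). Of the 29 genes higher by at least 1, 21 had a promoter in the table and 8 of these held such a match before at least 1 start (38.1%), against 722 of the 9702 tested genes that had a promoter (7.44%). Counted over single windows it was 8 of 34 (23.5%), against 3221 of 35116 promoters in the table (9.17%). The half-site AGAACA or TGTTCT, which overlaps the full motif, was in 8 of the 21 genes, against 10.8% of tested genes. Of the 5 genes lower by at least 1, 4 had a promoter and 0 held the motif. These are matches of letters and not measured binding sites.

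The next largest differences were in ST6GALNAC1, GREB1, ZBTB16 and STYXL2. ST6GALNAC1, a sialyltransferase gene of O-glycan synthesis, had 8.74 with DHT against 5.56 in control cells, where it was dim, and was higher by at least 3.08. ZBTB16, the gene of a zinc finger transcription factor, had 9.39 against 6.80, a difference of 2.58 or 5.99-fold. STYXL2, a pseudophosphatase gene, had 7.79 against a dim 5.33 and was higher by at least 2.13. GREB1, a hormone-responsive growth regulator gene, had 5.90 against a dim 3.01. Because its DHT level was itself near the median, GREB1 is given as higher by at least 0.24, although the deposited values differ by 2.89. In the shRNA pairs all of them rose by limma, with adjusted p = 1.78e-05 for ST6GALNAC1, 1.93e-07 for ZBTB16, 0.000243 for STYXL2 and 1.73e-05 for GREB1. STYXL2 was dim with vehicle in both shRNA pairs, where it was higher by at least 0.67 and 0.47, and its p rests on the deposited levels.

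A second group had moderate differences at high levels. TMPRSS2, a membrane protease gene, had 11.35 with DHT and 9.84 in control cells, a difference of 1.51 or 2.86-fold. C1orf116 had 11.19 against 9.66 (1.54), and the nuclease-like gene ENDOD1 had 10.96 against 9.44 (1.52). SLC45A3, which encodes the prostate surface protein prostein, had 9.87 against 8.46 (1.41). STK39 had 10.09 against 8.77 (1.32) and the centromere gene CENPN 9.62 against 8.32 (1.30). PMEPA1, a feedback inhibitor gene of TGF-beta signalling, had 10.48 against 9.37 (1.11), and FKBP5, whose product is a steroid receptor co-chaperone, had 10.34 against 9.33 (1.01). All of these 8 genes rose in the shRNA pairs by limma, with adjusted p between 1.52e-08 for TMPRSS2 and 8.05e-07 for STK39. The 8 are not all genes of this kind, so their agreement is not a share for such genes. ARHGEF26 (11.95 against 10.77) also rose there (limma adjusted p = 0.000112). RLN2 (10.23 against 9.15) was not called there, and UGT2B17 (10.59 against 9.38) was called lower. PMEPA1 and ARHGEF26 were chosen after their values were seen. GLMP, a lysosomal membrane protein gene, had 8.72 against 7.27 (1.44) on the probe set used, but its other probe sets, at 9.80 and 8.80 with DHT, differed by 0.03 and 0.05.

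**Figure D2:**
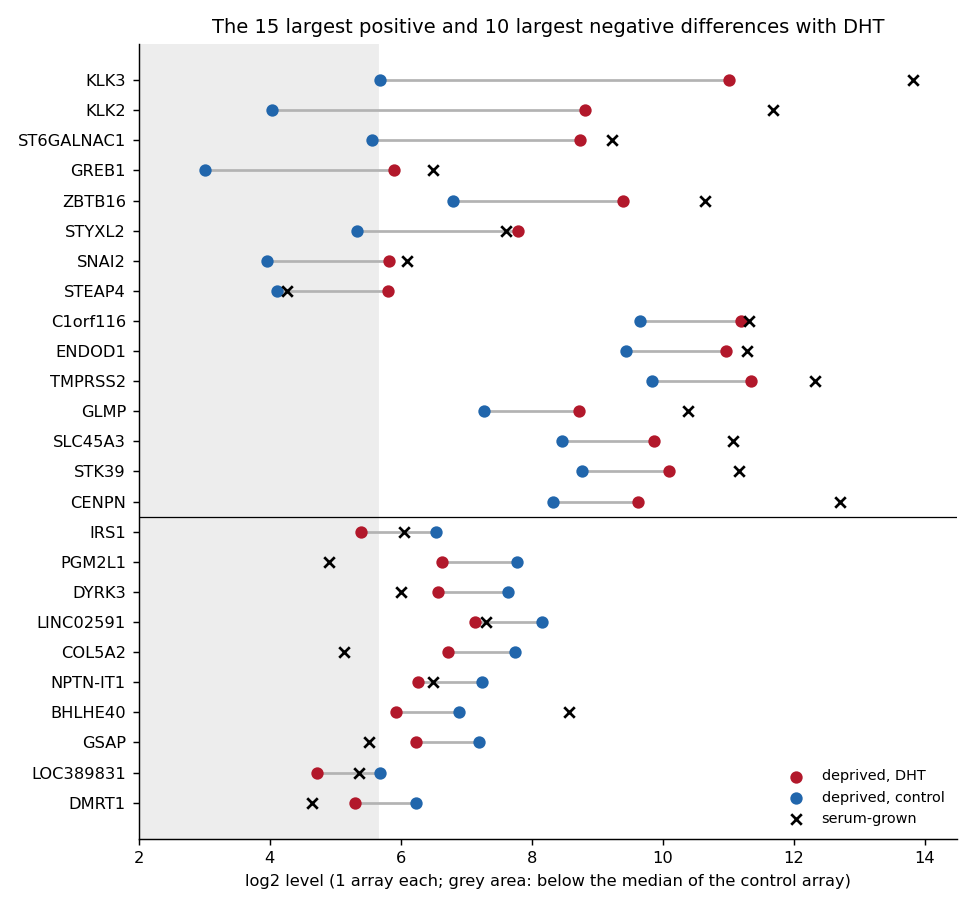
Log2 levels (x axis) of the 15 genes with the largest positive and the 10 with the largest negative difference, one gene a line, with DHT in red, deprived control in blue and serum-grown cells as crosses, 1 array each. In 13 of the 15 positive genes the serum-grown level lies beyond the DHT level, and the negative genes span shorter distances.

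Levels in the other arrays of the inhibitor series can be set beside the pair; they share its DHT or control array, so they are no independent support. Serum-grown cells had a higher level than DHT cells in 13 of the 15 genes with the largest positive differences; STYXL2 (7.61 against 7.79) and STEAP4 (4.26, dim, against 5.80) were the exceptions. The level was lower with etoposide and DHT than with DHT alone in 14 of the 15, and likewise with merbarone and DHT in 14 of the 15. SNAI2 was the exception in both. CENPN, for example, had 9.62 with DHT, 8.32 in control cells and 12.71 in serum-grown cells.

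Of the 29 genes higher by at least 1, 12 had another probe set that was not dim on both arrays. Their 21 further probe sets all had a positive difference, and 17 of them passed 0.5, which covered 11 of the 12 genes. The exception was GLMP. FKBP5 gave 1.01, 1.15 and 1.23, and TMPRSS2 gave 1.51, 1.91 and 1.21 in its 3 probe sets that were not dim. For smaller sizes, of 120 other probe sets of genes higher by 0.5 to 1, 98 were positive and 43 passed 0.5, and of 81 other probe sets of genes lower by 0.5 to 1, 59 were negative and 15 passed -0.5.

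Negative differences were fewer and smaller. PGM2L1, which encodes a sugar bisphosphate synthase, had 6.63 with DHT and 7.77 in control cells (-1.13), and its other 4 probe sets gave -0.78 to -0.23. DYRK3, a kinase gene, had 6.57 against 7.64 (-1.07), and COL5A2, a collagen gene, 6.72 against 7.74 (-1.01). DMRT1, a transcription factor gene, dim with DHT, was lower by at least 0.59. All of these also fell in the shRNA pairs by limma: PGM2L1 (-1.36 ± 0.21, adjusted p = 0.000817), DYRK3 (-0.99 ± 0.20, adjusted p = 0.00533), COL5A2 (-2.52 ± 0.24, adjusted p = 2.80e-05) and DMRT1 (-2.07 ± 0.26, adjusted p = 0.000221). With DHT, DYRK3 and DMRT1 were dim in both shRNA pairs and COL5A2 in the sh-control pair, so these sizes are not settled. Over the 3 pairs PGM2L1 fell (-1.29 ± 0.15, limma adjusted p = 0.0319), while DYRK3 (adjusted p = 0.0516), COL5A2 (0.0810) and DMRT1 (0.0740) did not pass. LINC02591 (7.14 against 8.16), NPTN-IT1 (6.26 against 7.24) and the gene GSAP (6.24 against 7.2) were lower by 0.96 to 1.02, with limma adjusted p from 0.242 to 0.428 over the 3 pairs. NPTN-IT1 was at -0.29 and -0.02 in the shRNA pairs. LINC02591 and GSAP were dim on all 4 shRNA-series arrays, so those arrays cannot show whether their differences recurred. LOC389831 was dim with DHT and lower by at least 0.03. TMEM158 (-0.74) and SLC12A2 (-0.39), an ion cotransporter gene, were the other genes that fell over the 3 pairs.

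IRS1, an adaptor gene of the insulin receptor, had a dim 5.40 with DHT against 6.54 in control cells and was at least 0.89 lower. Another IRS1 probe set that was not dim on both arrays gave 0.18. In the shRNA pairs the same IRS1 probe set was higher with DHT by 1.35 and 0.88. BHLHE40, a repressor gene of the circadian clock, had 5.93 against 6.89 (-0.96), whereas it was higher by 1.5 and 0.49 in the shRNA pairs.

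Most large positive responses of the pair recurred in the shRNA pairs, which share no array with it. Among all genes, limma called 8.87% higher and 11.2% lower with DHT in the shRNA pairs. Of the 29 genes higher by at least 1 in the inhibitor pair, 26 were higher in both shRNA pairs and 25 were called higher there (86.2%), with a median of 1.79; UGT2B17 was called lower and RLN2, ERVMER34-1 and SKA3 were not called. Of 175 genes higher by 0.5 to 1, 77 were called higher (44.0%) and 12 lower, and of 589 genes higher by 0.3 to 0.5, 138 were called higher (23.4%). Of genes under 0.3 in size, 7.5% were called higher. Of the 5 genes lower by at least 1, 3 were called lower there (60%) and 1, IRS1, was called higher. Of 120 lower by 0.5 to 1, 33 were called lower (27.5%), and of 448 lower by 0.3 to 0.5, 107 (23.9%), against 10.9% of genes under 0.3 in size. Across genes, which are not independent, the differences of the inhibitor pair and the mean of the shRNA pairs correlated at r = 0.373.

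Over the 3 pairs limma called 50 genes higher (0.421% of those tested) and 3 lower (0.0253%). In the inhibitor pair the 50 higher genes had differences between 0.34 and 5.33, with a median of 0.88, and in 39 of them the inhibitor pair had the smallest of the 3 differences. Beyond the genes named above they include CDC25A, the gene of a phosphatase of cell-cycle entry (6.73 with DHT and 5.68 in control cells), the arginase gene ARG2 (9.97 and 8.85), the claudin gene CLDN8 (7.71 and 6.82), CAMKK2, the gene of a calcium-dependent kinase (9.37 and 8.66), the relaxin gene RLN1 (10.81 and 10.12), the monoamine oxidase gene MAOA (12.48 and 11.92) and the thiamine transporter gene SLC19A2 (11.57 and 10.80). These genes were chosen after their values were seen. The count moved with the settings: the test made 5 calls without the intensity trend and 20 without the filter on low levels. Without the sh-control pair there was 1 call, without the sh-TOP2B pair 9, and without the inhibitor pair 2627.

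**Figure D3:**
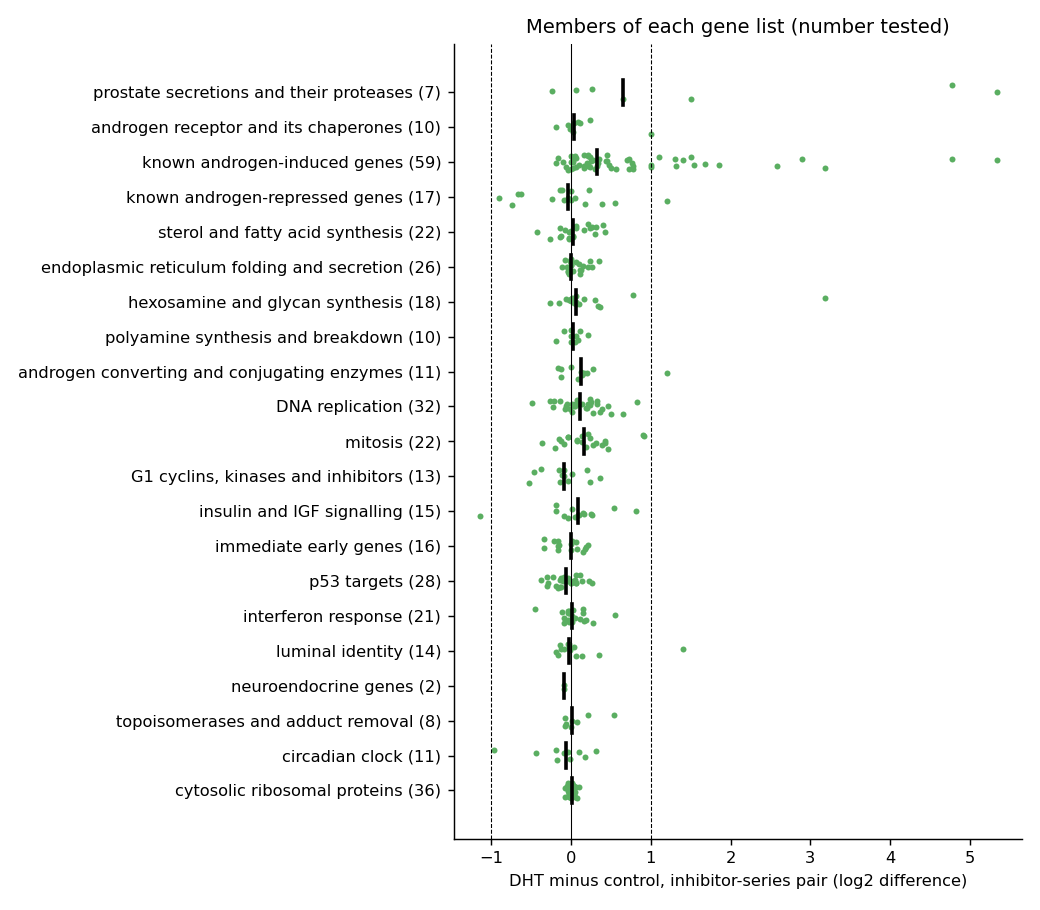
Log2 difference, DHT minus control, in the inhibitor-series pair for the tested members (points) of each gene list, with the list's median as a black bar and dashed lines at -1 and 1. The points of androgen-induced genes and prostate secretions reach far to the right, and most other lists lie close to 0.

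Gene lists were described by their counts and medians, beside 1.72% of all genes higher and 1.05% lower by at least 0.5 and a median of 0.001 over all genes. Of 59 tested genes on the list of known androgen-induced genes, 52 were above 0, 22 were higher by at least 0.5, 15 by at least 1 and 0 lower by at least 0.5, with a median of 0.33. The same 59 genes had a median of 1.31 over the shRNA pairs, where 52 were called higher. The lists were chosen with earlier results of these data known, so these counts are no independent support. Members with smaller differences in the inhibitor pair were MAF (0.78), TNFAIP8 (0.78), the scaffold gene HOMER2 (0.77), the drug exporter gene ABCC4 (0.73) and CAMKK2 (0.71). Members near 0 included NDRG1 (0.20), the kinase gene SGK1 (0.10), the sulfate transporter gene SLC26A2 (0.05) and BMPR1B (-0.04). These were chosen after their values were seen, apart from NDRG1.

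Of 7 tested genes of prostate secretions, 4 were higher by at least 0.5 (KLK3, KLK2, TMPRSS2 and KLK4) and 0 lower, with a median of 0.66; ACP3, the gene of prostatic acid phosphatase, was at -0.23. Of 14 luminal identity genes only SLC45A3 passed 0.5, and the median was -0.02; SPDEF, a transcription factor gene, had 9.79 with DHT and 9.44 in control cells. Of the 10 receptor chaperone genes tested, FKBP5 was the only one past 0.5, and FKBP4, a related co-chaperone gene, was at 0.24.

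Known androgen-repressed genes had a median of -0.04 in the pair, with 4 of 17 lower and 2 higher by at least 0.5. The members that were lower were the adhesion gene AMIGO2 (8.37 with DHT and 9.27 in control cells), TMEM158 (9.36 and 10.10), the opioid receptor gene OPRK1 (8.43 and 9.09) and SI (-0.62), and those that were higher were UGT2B17 (1.20) and the death ligand gene TNFSF10 (0.56). Over the shRNA pairs the same genes had a median of -0.94, and 12 were called lower. AMIGO2 and TMEM158 were put on the list because of earlier results of these data, so their direction is no independent support.

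Metabolic and secretory lists lay near 0. Of 22 sterol and fatty acid genes, 0 passed 0.5 in either direction (median 0.03). ACACA, the gene of acetyl-CoA carboxylase, was at 0.43 and rose over the 3 pairs by 0.56 ± 0.06 (limma adjusted p = 0.0297), and FDPS, a gene of isoprenoid synthesis, was at -0.42. None of 26 genes of folding and secretion in the endoplasmic reticulum passed 0.5 (median 0.00), led by the signal peptidase gene SEC11C (0.35) and SDF2L1 (0.26), whereas 17 were called higher in the shRNA pairs. Of 18 hexosamine and glycan genes, ST6GALNAC1 and CSGALNACT1 (8.38 with DHT and 7.60 in control cells), a gene of chondroitin synthesis, passed 0.5, and the median was 0.06. Of 10 polyamine genes 0 passed 0.5, with PAOX at 0.21 and the spermine synthase gene SMS at -0.19.

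Growth genes stood low on both arrays of the pair. Of 22 mitosis genes, 9 were dim with DHT and 12 in control cells, their median level was 6.0 with DHT and 5.41 in control cells, and all 22 were higher in serum-grown cells, with a median level of 10.31. The median difference was 0.16, or 0.00 with dim levels raised to the median. MKI67, a marker gene of cycling cells, had 6.17 with DHT and a dim 5.28 in control cells and was higher by at least 0.51, and CDC20, an activator of the anaphase-promoting complex, had 6.03 and a dim 5.12 and was higher by at least 0.38. In serum-grown cells MKI67 had 8.71 and CDC20 10.14. Neither passed the test over the 3 pairs (limma adjusted p = 0.110 and 0.236).

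Of 32 DNA replication genes, 23 were above 0 and 2 passed 0.5, with a median of 0.12: CDC45, a helicase component gene, was higher by at least 0.48 (6.13 with DHT and a dim 5.31 in control cells), and TK1, the thymidine kinase gene, had 6.94 and 6.29, with a second probe set at 0.05. All 32 had higher levels in serum-grown cells than with DHT. In the shRNA pairs 21 of the 32 were called higher. Of 15 insulin and IGF signalling genes, IRS2 (0.82) and the receptor gene IGF1R (0.54) were higher and IRS1 lower by at least 0.5, with a median of 0.09. Of 13 genes of G1 control, the kinase inhibitor gene CDKN2B was at -0.52 and the Mediator kinase gene CDK8 at -0.46, with a median of -0.09. TOP2B had 10.57 with DHT and 10.55 in control cells, and TOP2A, the topoisomerase II gene of cycling cells, was dim on both (4.50 and 4.42), with 10.42 in serum-grown cells. TOP1MT (0.54) and SPRTN (0.22) led the list of topoisomerases and adduct-removing genes.

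The stress, immune and clock lists had medians near that of all genes. Targets of p53 had a median of -0.06 with 0 of 28 past 0.5 in either direction; CDKN1A, the gene of the cell-cycle inhibitor p21, had 11.25 with DHT and 11.62 in control cells, and SESN1 was at -0.30. Interferon response genes had a median of 0.02, with BST2 at 0.56 and IRF1 at -0.45 as the largest sizes. Immediate early genes had a median of 0.00, with FOS at -0.34 and CCN1 at -0.33. A second CCN1 probe set gave 0.28, so the direction of CCN1 depends on the probe set. Clock genes had a median of -0.06, with NR1D2 at -0.44 beside BHLHE40. Of the androgen-converting and conjugating enzymes, only UGT2B17 passed 0.5, and HSD17B14 was at 0.28 (-0.04 with the median over its probe sets). The 2 tested neuroendocrine genes, DDC and ENO2, were both at -0.09. The 36 ribosomal protein genes had a median of 0.01, with RPL35 (0.10) and RPL38 (0.08) as the largest.

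**Figure D4:**
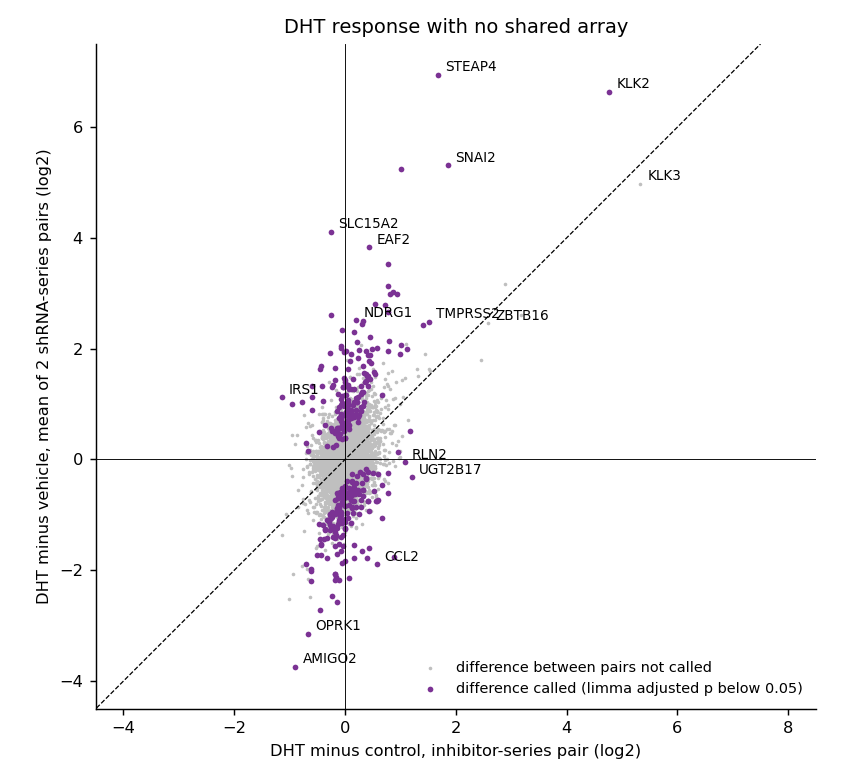
Each point is a gene, with its log2 DHT difference in the inhibitor-series pair on the x axis and the mean over both shRNA-series pairs on the y axis; purple points were called for a difference between the pairs, and the dashed line marks equal values. KLK3 (5.33) and ZBTB16 (2.58) lie by the line, while STEAP4 and SNAI2 lie far above it.

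Many responses of the shRNA pairs were weak in this pair. Of 145 genes higher by at least 1 in both shRNA pairs, 22 were higher by at least 1 in the inhibitor pair, 54 by at least 0.5, and 55 were under 0.3 in size. Their median was 0.38 in the inhibitor pair, against 1.55 in the shRNA pairs, and 124 were above 0. Of 105 genes lower by at least 1 in both shRNA pairs, 2 were lower by at least 1 here, 15 by at least 0.5, and 61 were under 0.3 in size, with a median of -0.21 against -1.40. Genes passed the filter on their mean over all 9 arrays, so both sets hold genes dim on both arrays of this pair. Examples are HPGD and CDK6 (5.36 with DHT and 5.43 in control cells) among the 145, and PEG3-AS1 (5.15 and 4.27) among the 105. For such genes a small difference here does not show a weak response. By the test of the difference, 87 of the 145 and 65 of the 105 were smaller in the inhibitor pair and 0 were larger, a direction that choosing the genes by their size in the shRNA pairs largely sets. Over all genes the test called 174 higher (1.47%) and 179 lower (1.51%) in the inhibitor pair than in the shRNA pairs. Without the intensity trend this test called 0 genes, with 1326 at an unadjusted p under 0.05, so the single calls below depend on that choice. The genes below were also chosen by their sizes in the same pairs, so their tests are not independent of the choice. The series differ in transfection, sorting and RNA quality (the beta-actin values above), and these cannot be told apart. Their baselines differed too: TOP2A was dim at 4.42 in the control cells of this pair, against 8.97 and 8.82 with vehicle in the sh-control and sh-TOP2B cells.

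Several genes with large differences between the pairs were strong responders of the shRNA pairs. STEAP4, a metalloreductase gene, had 5.80 with DHT and a dim 4.12 in control cells, so it was higher by at least 0.14, against at least 5.23 and 5.15 in the sh-control and sh-TOP2B pairs. SNAI2, the gene of a repressor of epithelial genes, had 5.82 and a dim 3.96, higher by at least 0.17, against at least 4.67 and 4.47. Both genes were dim in all 3 control or vehicle groups, so their differences between pairs (-5.25 ± 0.44 and -3.44 ± 0.36 in deposited values, limma adjusted p = 0.000264 and 0.00067) have no settled size. Their levels with DHT were not dim: STEAP4 had 5.80 here against 10.94 and 10.86 in the shRNA series, and SNAI2 5.82 against 10.38 and 10.18. The peptide transporter gene SLC15A2 (5.46, dim, with DHT and 5.71 in control cells) was higher by at least 3.74 and 3.51 in the shRNA pairs, where it was dim with vehicle. EAF2, the gene of an elongation factor partner, was at 0.44 here, against 4.01 and 3.65. With the median over its probe sets EAF2 was at -0.20, but its other probe sets were dim on both arrays. NDRG1, a stress-responsive gene, had 9.32 with DHT and 9.12 in control cells, against differences of 2.59 and 2.43 (-2.31 ± 0.15, adjusted p = 8.69e-05).

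Among other genes of at most 0.30 in size here, FAM111B, DIPK2A and the transcription factor gene KLF5 were higher in each shRNA pair by 1.94 to 2.64. DIPK2A was at 0.17 here on the probe set used and at -0.22 with the median over its probe sets, of which the others were dim on both arrays. SPOCK1, dim with DHT here and with vehicle in the sh-control cells, was higher by at least 2.31 and by 2.49 there. LRRN1, PITX1-AS1, the lactoferrin gene LTF and the phosphatase gene PTPRR were at -2.35 to -1.83 in each shRNA pair and between -0.18 and -0.11 here. CERK (-0.14) and the drug exporter gene ABCG2 (-0.24) were dim with DHT in both shRNA pairs, where CERK was at -1.48 and -1.37 or below and ABCG2 at -2.52 and -2.28 or below. PTPRR had 10.91 with DHT and 11.09 in control cells, against 7.88 and 8.48 with DHT and 10.19 and 10.31 with vehicle in the shRNA series. MAN1A1, a mannosidase gene, had 11.78 and 12.24 (-0.45), against -2.83 and -2.62. The insulin pathway gene IRS2 had 7.83 and 7.01 (0.82), against 3.31 and 2.66, and CSGALNACT1 (0.78) stood against 3.89 and 3.17.

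The genes higher by at least 1 in the pair were not alike in this test. Of the 29, limma called 8 lower in the inhibitor pair and 3 higher, against 1.51% and 1.47% of all genes tested. KLK2, TMPRSS2, SLC45A3 and FKBP5 had smaller differences in the inhibitor pair than in the shRNA pairs by limma: -1.86 ± 0.25 for KLK2 (adjusted p = 0.00279, with dim control or vehicle levels in all 3 pairs), -0.97 ± 0.14 for TMPRSS2 (adjusted p = 0.00377), -1.0 ± 0.19 for SLC45A3 (adjusted p = 0.0161) and -1.05 ± 0.12 for FKBP5 (adjusted p = 0.00124). For KLK3 (0.35 ± 0.16, adjusted p = 0.336), ZBTB16 (0.12 ± 0.20, adjusted p = 0.867), C1orf116 (-0.05 ± 0.13, adjusted p = 0.923) and ENDOD1 (-0.12 ± 0.15, adjusted p = 0.794) no difference was called. None was called either for ST6GALNAC1 (limma adjusted p = 0.586), GREB1 (0.876), STYXL2 (0.479), STK39 (0.69), CENPN (0.284) or GLMP (0.234). These misses do not show that the pairs responded alike. The levels of KLK3 were not alike: its control level was 5.68 in this pair, against 8.72 and 8.88 with vehicle in the shRNA pairs.

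**Figure D5:**
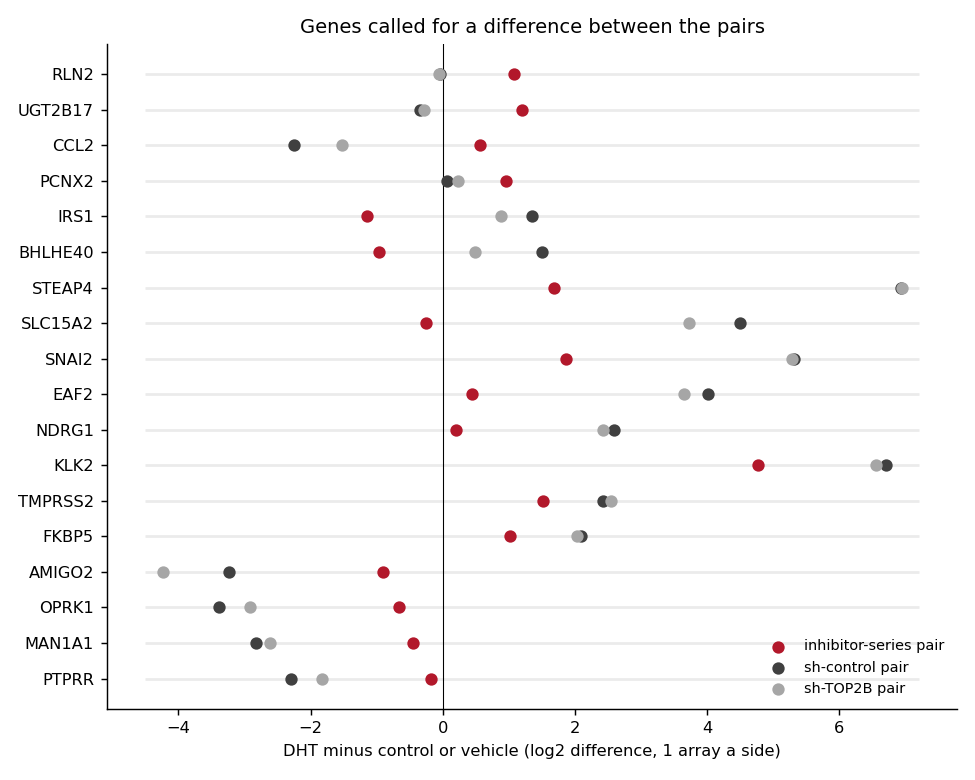
Log2 DHT differences (x axis) of 18 genes called for a difference between the pairs, with the inhibitor-series pair in red, the sh-control pair in dark grey and the sh-TOP2B pair in light grey, 1 array a side. RLN2 and UGT2B17 stand to the right of 0 in the inhibitor pair only, and IRS1 and BHLHE40 to the left.

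A few responses were present in this pair and weak or opposite in the shRNA pairs. UGT2B17, which encodes an enzyme that conjugates androgens for removal, had 10.59 with DHT and 9.38 in control cells, a difference of 1.20 or 2.30-fold, against -0.34 and -0.29 in the shRNA pairs (difference 1.52 ± 0.16, limma adjusted p = 0.000613). Serum-grown cells had 10.60. UGT2B genes are close paralogs and can share probes, so the member measured is uncertain; UGT2B15 was at 0.00. The relaxin gene RLN2 had 10.23 and 9.15 (1.08), against -0.04 and -0.06 (1.13 ± 0.17, adjusted p = 0.00442), and it has a close paralog in RLN1. PCNX2 had 11.20 and 10.25 (0.95), against 0.06 and 0.23 (0.81 ± 0.16, adjusted p = 0.0198).

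CCL2, a chemokine gene, had 9.04 with DHT and 8.47 in control cells (0.57), against -2.25 and -1.53 (2.46 ± 0.29, limma adjusted p = 0.00126). IRS1 (-2.25 ± 0.36, adjusted p = 0.00761) and BHLHE40 (-1.96 ± 0.35, adjusted p = 0.0135) ran the other way, lower here and higher in the shRNA pairs. ERVMER34-1, IPMK and NCEH1 were higher by at least 0.91, at least 0.70 and 0.79 and were under 0.3 in size in the shRNA pairs, but their differences between pairs were not called (adjusted p = 0.262, 0.152 and 0.276). NPTN-IT1 (-0.98) was likewise not called (adjusted p = 0.263).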

How the data were processed

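RNA of LNCaP cells was measured on 9 Affymetrix U133 Plus 2.0 arrays, 1 per group. The deposited values are log2 levels per probe set, and RMA was used, per the submitters' processing notes, with no version or further step stated. RMA makes array distributions alike, so a shift shared by most genes would be removed. The number of arrays limits the precision.

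Probe sets with 1 symbol in the platform annotation (41097; several 1801, none 11777) were named, 41043 through RefSeq gene IDs. Each gene took its probe set with the highest mean (19775 genes), and genes below the 40th percentile of the mean were left out (11865 tested). Some genes are not reported here.

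limma 3.58.1 (R 4.3.3; eBayes with trend, Benjamini-Hochberg, threshold 0.05, two-sided) fitted all 9 arrays with the background as a block, a DHT term and a term for each lone array (2 residual degrees of freedom), and again with a term for DHT in the inhibitor series (1 residual degree of freedom). Tested on simulated data of 11865 genes, the fits recovered 94% of changes of 1 over the 3 pairs and 97% over the shRNA pairs. They recovered 98% of pair differences of 2. False calls were 2.02%, 12.1% and 11.3%, so the last 2 fits call more freely than the threshold says. The 2.02% leaves out genes simulated to change in the inhibitor pair only. Simulated noise was independent between arrays, and apart from those genes no DHT effect varied between pairs. For these data the 2.02% may thus be too low.

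The named genes are the 15 largest positive and 10 largest negative differences, 2 members of each of 21 lists, 7 anchor genes, of which 6 could be named, up to 6 genes per class of weak or particular response, and 5 per direction of the difference test. The members, rule and lists were chosen with earlier results of these data known. Other genes were chosen after their values were seen or as members of a stated count, also where this is not said. Alternatives changed the probe set, filter, centring (on 36 ribosomal protein genes), normalization, trend and arrays.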

Additional observations from a re-analysis of the deposited data

Results flagged for a closer look

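For 32 named genes the DHT difference of the inhibitor pair differed from that of the shRNA pairs by the limma test of the difference (adjusted p below 0.05); the values are log2 and run inhibitor pair minus shRNA pairs. Without the intensity trend the test called 0 genes. Of the 32 genes, 9 were dim on at least 1 of the 6 arrays, so their sizes are not settled: STEAP4, SNAI2, KLK2, SLC15A2, SPOCK1, CERK, ABCG2, AMIGO2 and IRS1. The RNA quality measure and the handling of the cells move with the series, and their part was not tested.

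Smaller positive differences in the inhibitor pair gave STEAP4 -5.25, SNAI2 -3.44, EAF2 -3.39, CSGALNACT1 -2.76, NDRG1 -2.31, IRS2 -2.16, FAM111B -2.14, DIPK2A -2.12, KLK2 -1.86, KLF5 -1.72, FKBP5 -1.05, SLC45A3 -1.0 and TMPRSS2 -0.97. SLC15A2 -4.36, SPOCK1 -2.86 and SMS -0.71 were below 0 in the inhibitor pair and above 0 in the shRNA pairs. Smaller negative differences gave AMIGO2 2.84, OPRK1 2.49, CERK 2.45, MAN1A1 2.27, ABCG2 2.22, PITX1-AS1 2.06, LRRN1 1.97, LTF 1.89, PTPRR 1.89 and DDC 0.86. Responses present or opposite in the inhibitor pair gave CCL2 2.46, UGT2B17 1.52, RLN2 1.13 and PCNX2 0.81 upward, and IRS1 -2.25 and BHLHE40 -1.96 downward.

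Outside the named genes, 3797 probe sets without a single gene symbol passed the filter on level. Of these, 11 were higher and 8 lower by at least 1 with DHT than in control cells, with the largest values at 2.78 and -1.34.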

How the results depend on the processing

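The count of 29 genes higher by at least 1 in the pair was 16 with a filter at the 60th percentile and stayed within 1.5 times under the other 5 alternatives. The count of 5 lower genes was 8 with no filter, 0 with the 60th percentile filter and 3 with arrays centred on ribosomal protein genes. The 53 calls over the 3 pairs became 35 with the median over probe sets, 20 with no filter, 5 with no intensity trend, 2627 without the inhibitor pair, 1 without the sh-control pair and 9 without the sh-TOP2B pair. The 2381 calls of the shRNA pairs became 607 with no trend. The 353 calls for a difference between pairs became 148 with no filter, 607 with the 60th percentile filter and 0 with no trend (1326 at an unadjusted p under 0.05); with no filter 37.2% of these were higher against 49.3% in the reported fit. Leaving out a shRNA pair leaves this test no residual degree of freedom, so it was not run. Of the list medians, that of prostate secretions was 0.26 with no filter and that of mitosis genes 0.00 with dim levels raised to the median. With the median over probe sets, 26 of 81 named genes moved by more than the spread over genes and 55 did not. The spread here is the SD over genes estimated from the median absolute deviation (0.149). Of the 26, KLK2 was at 1.80, STEAP4 at 0.85, GLMP at 0.05, TK1 at 0.35, IPMK at 0.49, TOP1MT at 0.21, IRF1 at -0.23, SPDEF at 0.19, IRS1 at -0.19, PGM2L1 and DYRK3 at -0.57, LINC02591 at -0.51, LOC389831 at -0.47, BHLHE40 at -0.48 and CCN1 at -0.02, while HSD17B14 (-0.04), DIPK2A (-0.22) and EAF2 (-0.20) turned below 0. The other probe sets of STEAP4, IPMK, TOP1MT, DYRK3, LINC02591, LOC389831, BHLHE40, DIPK2A and EAF2 were all dim on both arrays, so their medians take in dim levels. The cause of the moves was not tested. The remaining genes of the 26, apart from TOP2A, kept their sign and moved by less than 1.5 times. TOP2A, dim on both arrays, was at -1.48 and is given no difference. No paired analysis by replicate number was possible because the labels carry none.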
